A study of Homo sapiens with 12 samples.

Results

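H3K4me3 regions that carry H3K4me1 beside their summit on one side and not on the other were described in the human liver cancer line HepG2. They were taken from 3 pooled lists of ChIP-seq peaks, 1 each for H3K4me3, H3K4me1 and H3K27ac. A member had to lie on chromosomes 1 to 22 or X, be at least 1500 and under 4000 bp wide, and have its H3K4me3 summit outside every H3K4me1 region. Of the bases 1500 bp left and right of that summit, exactly one had to be inside an H3K4me1 region. Members were thus chosen by H3K4me3 width and summit and by the placing of H3K4me1, so what is said of those is a description. Of 24446 H3K4me3 regions on these chromosomes, 10744 had that width and 3971 were members. They are called one-sided here, with an H3K4me1 side and a bare side. H3K4me1 lay to the left of the summit in 1938 and to the right in 2033, sides that have no meaning without the direction of transcription. The regions flanked on both sides numbered 3421 and those flanked on neither 1691. A further 1661 had the summit inside H3K4me1.

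The cells were untreated, with no genotype named beyond the line, and each mark had 3 libraries titled as replicates. Beside them, 3 control libraries were titled input while their antibody label named anti-mouse IgG. No replicate values were analysed here, so no value could be set against the spread between cultures and no test was made. Intervals are 95% Wilson intervals. They cover counting error only, as if neighbours were independent of each other. The standard deviation (SD) over the 23 chromosomes shows how even a value was across the genome of these pooled lists. Chromosomes are not replicates. Positions are those of the authors' lists, in hg19. Gene starts of that build were not used here, so whether each region is a promoter, which gene it serves, and the promoters of liver and other marker genes were not checked.

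H3K4 methylation differs in degree along active promoters. The trimethylated form marks the nucleosomes around active transcription start sites, and the monomethylated form marks enhancers and the outer shoulders of promoters. Promoters often show a centre of H3K4me3 with H3K4me1 on both shoulders, since a lysine carries a single methylation state at a time. H3K27ac, an acetylation laid down by the p300 and CBP enzymes, is found at active promoters and enhancers alike.

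The width class with the summit outside H3K4me1 held 9083 regions, of which 43.7% (42.7 to 44.7) were one-sided, 37.7% (36.7 to 38.7) both-sided and 18.6% (17.8 to 19.4) flanked on neither side. Over chromosomes the one-sided share had an SD of 3.21 percentage points. Counting each side alone, 59.5% of the sides held H3K4me1 at 1500 bp. If the sides of a region were filled independently at that share, the product of the shares would give 4377 one-sided, 3218 both-sided and 1488 unflanked regions. The observed 3971 one-sided regions were thus fewer than that product, and the sides of a region were somewhat alike.

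The one-sided share changed little across H3K4me3 strength, while the other classes traded places. In the weakest quartile of the authors' H3K4me3 signal value 42.9% of the regions were one-sided, 30.3% both-sided and 26.8% unflanked. In the strongest quartile the shares were 42.6%, 45.3% and 12.1%. Width gave a less even picture. The one-sided share was 45.5% in the narrowest quartile, 49.7% in the second, 37.8% in the third and 41.9% in the widest, and the both-sided share went from 22.3% in the narrowest to 49.5% in the third. The limits of the width class made no visible step: 44.5% of 301 regions from 1400 to under 1500 bp were one-sided, against 43.3% of 270 regions from 1500 to under 1600 bp. At the upper limit the shares were 50.0% of 174 regions from 3900 to under 4000 bp and 45.9% of 133 regions from 4000 to under 4100 bp.

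One-sided regions lay between the other classes in strength. Their median H3K4me3 signal value was 42.5 (interquartile range 31.8 to 51.8), against 44.7 (34.4 to 54.1) for both-sided and 37.4 (26.2 to 47.9) for unflanked regions. The difference from both-sided regions was -0.07 in median log2 signal value (SD 0.06), below 0 on 21 of 23 chromosomes. Within quartiles of width it averaged -0.0064, so regions of like width hardly differed in H3K4me3. Median widths were 2476 bp for one-sided, 2756 bp for both-sided and 2229 bp for unflanked regions. An H3K27ac region covered the summit of 3862 one-sided regions (97.3%, 96.7 to 97.7), compared with 98.8% (98.4 to 99.1) of both-sided and 94.4% (93.2 to 95.4) of unflanked ones. The median H3K27ac signal value there was 20.4 (12.2 to 30.7) in one-sided, 22.7 (14.3 to 32.0) in both-sided and 17.1 (9.31 to 27.6) in unflanked regions. In median log2 signal value the difference of one-sided from both-sided regions was -0.15 (SD 0.16). It was below 0 on 22 of 23 chromosomes and about as large as its spread over them. Within quartiles of width it averaged -0.085, and with peaks of a −log10 q-value of at least 5 it was -0.098. Among regions of at least 2500 bp it had the opposite sign, 0.038. With the flank taken at 1000 bp both differences had the opposite sign too, 0.11 for H3K4me3 and 0.29 for H3K27ac.

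**Figure D1:**
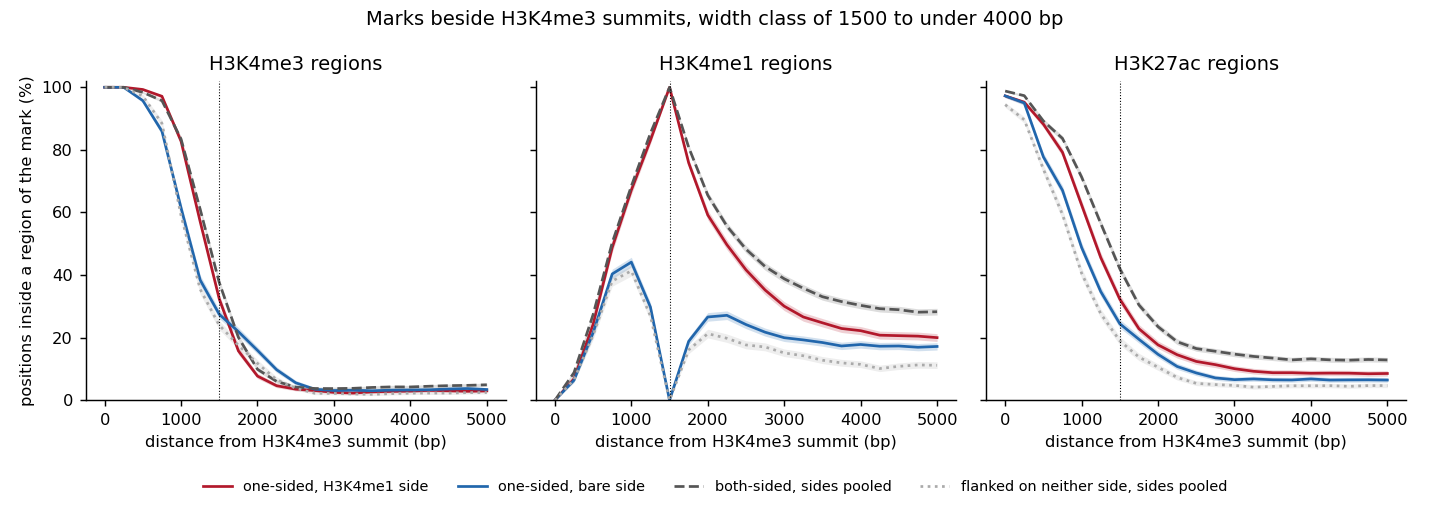
Share of positions inside H3K4me3, H3K4me1 and H3K27ac regions (y axis, percent) by distance from the H3K4me3 summit (x axis, bp). Red and blue are the H3K4me1 side and the bare side of the 3971 one-sided regions, grey dashes the pooled sides of both-sided regions and grey dots those of unflanked ones, and bands are 95% Wilson intervals. The values of 100 and 0 for H3K4me1 at 1500 bp (vertical line) are set by the rule; on the bare side the H3K4me1 share reaches 44.1% at 1000 bp.

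Most bare sides held H3K4me1 close to the position tested. At 1000 bp from the summit an H3K4me1 region was present in 67.1% of one-sided regions on the H3K4me1 side and in 44.1% on the bare side, and at 2000 bp in 59.2% and 26.6%. Farther out the sides drew together, with 20.0% against 17.2% at 5000 bp and 16.6% against 16.2% at 10000 bp. At 10000 bp both-sided regions had 23.9% and unflanked regions 8.90%, so the classes still differed at a distance where the sides of one-sided regions hardly did. At 20000 bp the sides had 15.0% (13.9 to 16.1) and 13.6% (12.5 to 14.7), against 22.4% and 9.28% in those classes. H3K27ac there was 8.84% on the H3K4me1 side and 7.13% on the bare side. The difference between sides in H3K4me1 was thus mostly a local one, while the surroundings of the classes differed more widely.

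The bare sides were divided into 4 kinds, a division made after the values had been seen. On 2242 bare sides (56.5%, 54.9 to 58.0) an H3K4me1 region began before 1500 bp, and it ended before that position. These regions were short, with a median width of 596 bp (431 to 785), against 1211 bp (817 to 1798) for the regions that formed the flank on the H3K4me1 side. The division limits their width, since they had to lie between the summit and 1500 bp. The widest was 1464 bp, against 18542 bp for the flanks, which had no such limit. On a further 934 bare sides (23.5%, 22.2 to 24.9) no H3K4me1 region began that early and an H3K4me3 region, the member's own or another, covered the position. On 293 (7.38%) H3K4me1 began beyond 1500 bp and before 5000 bp, with the position free of H3K4me3 too. The remaining 502 (12.6%, 11.6 to 13.7) had no H3K4me1 to 5000 bp and no H3K4me3 at 1500 bp, and are called empty bare sides. Counted regardless of H3K4me3, 606 one-sided regions (15.3%) had no H3K4me1 from the summit to 5000 bp on the bare side, and 398 (10.0%) had none to 10000 bp. Over the whole stretch to 5000 bp the name one-sided thus held for 606 of the 3971 members.

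The kinds differed in shape. In the 934 regions of the second kind, with H3K4me3 over the bare position, the H3K4me3 region was wide (median 3391 bp) and reached 2007 bp (1725 to 2271) from the summit on the bare side and 1321 bp (1121 to 1549) on the H3K4me1 side. In the 3 other kinds it reached farther on the H3K4me1 side. Its median reach was 1298 bp there against 977 bp on the bare side where a short H3K4me1 region lay on the bare side, and 1267 against 1014 bp where the bare side was empty. The order of the reaches is in part set by the division. The second kind had to have H3K4me3 over the bare position. Where H3K4me1 lay farther out or the bare side was empty, H3K4me3 could not cover that position. Median H3K4me3 signal values were 39.3 with a short H3K4me1 region on the bare side, 48.6 with H3K4me3 over the position, 44.5 with H3K4me1 farther out and 41.7 with an empty bare side. The flank on the H3K4me1 side was of like strength in all 4, with median H3K4me1 signal values of 4.22, 4.06, 3.89 and 3.85.

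**Figure D2:**
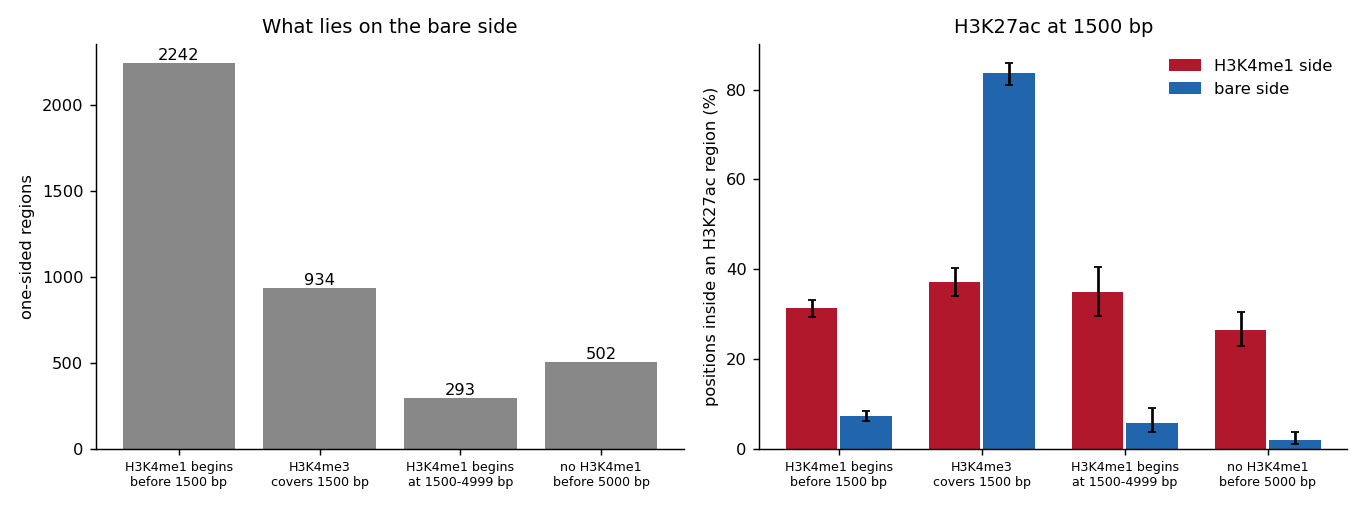
Left, the number of one-sided regions by what lay on their bare side (4 kinds, 3971 regions). Kinds other than the first are defined in part by H3K4me3 at the bare position, which in part sets their H3K27ac there. Right, the share of positions 1500 bp from the summit inside an H3K27ac region (percent), on the H3K4me1 side (red) and the bare side (blue), with 95% Wilson intervals; the bare side is the higher one where H3K4me3 covers it (83.6%) and the lower one in the 3 other kinds (7.27%, 5.80% and 1.99%).

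Many members owed their place to a small distance. In 831 (20.9%) the bare position was within 100 bp of an H3K4me1 region, and in 705 (17.8%) the position on the H3K4me1 side was within 100 bp of the end of its H3K4me1 region. Either was true of 1412 (35.6%, 34.1 to 37.1). When the same 3971 regions were classed at 2000 bp in place of 1500 bp, 1701 (42.8%) were one-sided with the same side, 407 (10.2%) were one-sided with the other side, 650 (16.4%) were both-sided and 1213 (30.5%) were unflanked. At 1000 bp, 1448 (36.5%) kept their side, 535 (13.5%) had the other side, 1218 (30.7%) were both-sided and 770 (19.4%) were unflanked.

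H3K4me1 usually began inside the H3K4me3 region. On the H3K4me1 side the first H3K4me1 region began at a median of 756 bp (506 to 1062) from the summit, which was 539 bp (358 to 763) inside the H3K4me3 region. On the 2242 bare sides with an early H3K4me1 region it began 413 bp (290 to 551) inside. On the sides of both-sided regions it began 585 bp (399 to 812) inside. H3K4me1 thus overlapped the outer part of the H3K4me3 region on each kind of side. The H3K4me1 regions of the bare side, which had to end before 1500 bp, began less far inside it.

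The share of flanked sides varied with the reach of H3K4me3. Over the sides of all 9083 regions, the share with H3K4me1 at 1500 bp was 31.5% where H3K4me3 reached 500 to 749 bp, 59.9% at 1000 to 1249 bp, and highest at 80.8% (79.1 to 82.3) at 1500 to 1749 bp. It was lower again with longer reach, at 51.2% for 2000 to 2249 bp and 43.8% for 2250 to under 2500 bp. Bare sides were thus more frequent both where H3K4me3 ended well before the position and where it ran far past it. Over all one-sided regions H3K4me3 reached a median of 1300 bp (1081 to 1578) on the H3K4me1 side. On the bare side the median was 1081 bp (848 to 1500). The difference of 219 bp (SD 63.6) was above 0 on 23 of 23 chromosomes. With the flank taken at 1000 bp, however, the difference was -351 bp, and in regions of at least 2500 bp it was 7 bp.

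**Figure D3:**
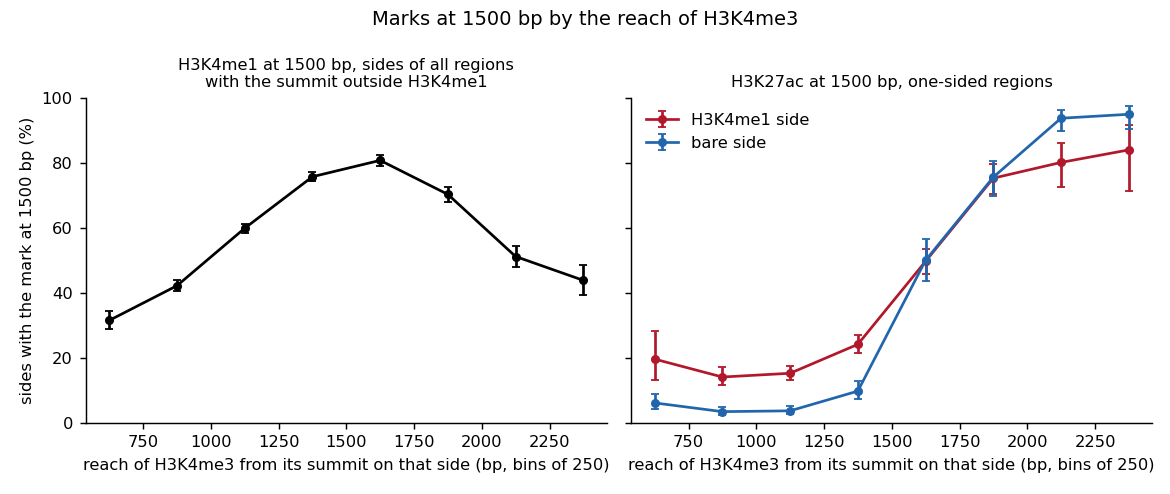
Share of sides with H3K4me1 (left, sides of all 9083 regions with the summit outside H3K4me1) or H3K27ac (right, one-sided regions, red the H3K4me1 side and blue the bare side) at 1500 bp from the summit, in percent, by how far H3K4me3 reached on that side (x axis, bins of 250 bp); bars are 95% Wilson intervals. H3K4me1 peaks at 80.8% for a reach of 1500 to 1749 bp, and below a reach of 1500 bp H3K27ac is more frequent on the H3K4me1 side in each bin.

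Taking the end of the H3K4me3 region in place of a fixed distance gave a different division of the same members. At the last base of the H3K4me3 region H3K4me1 was present in 88.8% (87.7 to 89.7) on the H3K4me1 side and 58.5% (56.9 to 60.0) on the bare side, compared with 91.1% of the sides of both-sided and 50.7% of the sides of unflanked regions. H3K4me1 lay at both ends of the H3K4me3 region in 2069 one-sided regions (52.1%, 50.5 to 53.7). It lay at the end on the H3K4me1 side alone in 1456 (36.7%, 35.2 to 38.2), at the end on the bare side alone in 253 (6.37%) and at neither end in 193 (4.86%). More than 50% of the members thus had H3K4me1 on both shoulders when the shoulder was located by H3K4me3 itself.

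H3K27ac, which the rule did not use, was also uneven between the sides. At 1500 bp it was present in 1283 one-sided regions (32.3%, 30.9 to 33.8) on the H3K4me1 side and in 971 (24.5%, 23.1 to 25.8) on the bare side. The difference of 7.86 percentage points (SD 5.65 over chromosomes, range -6.04 to 19.2) was above 0 on 22 of 23 chromosomes, the exception being chromosome 8. With H3K4me1 and H3K27ac both taken at 1000 bp, which gave 4159 members, it was -13.3. With both at 2000 bp, which gave 4079, it was 23.1. In the 3971 members classed at 1500 bp, H3K27ac was present at 1000 bp on 62.4% of the H3K4me1 sides and 48.8% of the bare sides. At 2000 bp the shares were 17.7% and 14.7%. The difference at 1500 bp was 3.09 after H3K4me1 peaks within 1000 bp were joined, 14.4 in regions under 2500 bp and 0.98 in wider ones. Sides of both-sided regions had H3K27ac at 42.0% (40.9 to 43.2) and those of unflanked regions at 19.0% (17.7 to 20.4), so that each side of a one-sided region lay between them. Among the one-sided regions 897 had H3K27ac at the H3K4me1 side alone, 585 at the bare side alone, 386 at both positions and 2103 at neither.

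The H3K27ac difference depended on the kind of bare side. All kinds but the first were defined in part by H3K4me3 at the bare position, with no such condition on the H3K4me1 side. Since H3K27ac was frequent inside H3K4me3, their values are in part set by the division. Where a short H3K4me1 region lay on the bare side, H3K27ac was present at 31.3% on the H3K4me1 side and 7.27% on the bare side. In the 502 regions with an empty bare side the values were 26.5% (22.8 to 30.5) and 1.99% (1.09 to 3.63). Over all 606 without H3K4me1 to 5000 bp, those with H3K4me3 over the bare position included, the difference was 14.2 percentage points. In the 934 regions of the second kind the order was the opposite, with 37.2% (34.1 to 40.3) on the H3K4me1 side and 83.6% (81.1 to 85.9) on the bare side. These regions also had the highest median H3K27ac signal value at the summit, 28.4 (19.9 to 39.3), against 17.6, 19.6 and 19.5 in the other kinds. H3K4me3 also covered the bare position in 157 of the regions with a short H3K4me1 region there. Without all 1091 members of either kind whose bare position lay in H3K4me3, the difference between sides was 27.5 percentage points. That step was applied to the bare side only. Over all members H3K4me3 covered the position on the H3K4me1 side in 32.4%, so the larger difference is in part set by the step.

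H3K27ac was frequent inside H3K4me3, so sides were also compared at like reach of H3K4me3. For a reach of 750 to 999 bp H3K27ac was present at 1500 bp on 14.1% (11.5 to 17.2) of the H3K4me1 sides and 3.43% (2.47 to 4.76) of the bare sides. For 1000 to 1249 bp the shares were 15.2% (13.2 to 17.6) and 3.68% (2.65 to 5.10), and for 1250 to under 1500 bp 24.1% and 9.75%. Once H3K4me3 itself reached the position the sides did not separate, with 49.7% (45.9 to 53.5) and 50.0% (43.6 to 56.4) for 1500 to 1749 bp. For 2000 to 2249 bp the bare side was the higher one, with 80.1% (72.7 to 86.0) and 93.8% (89.9 to 96.2). Where the member's own H3K4me3 region ended before 1500 bp, acetylation at that position was therefore more frequent on the side with H3K4me1. Where that region reached the position, acetylation was not more frequent on that side. Other distances were not compared at like reach.

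At the ends of the H3K4me3 region H3K27ac went with H3K4me1. It covered 34.6% (33.1 to 36.1) of the ends on the H3K4me1 side and 25.9% (24.5 to 27.2) on the bare side, a difference of 8.71 percentage points (SD 4.82), above 0 on 22 of 23 chromosomes, again with chromosome 8 as the exception (-0.67). Where H3K4me1 lay at both ends the shares were 36.1% (34.0 to 38.1) and 30.4% (28.5 to 32.5). Where it lay at the end on the H3K4me1 side alone they were 37.4% (34.9 to 39.9) and 19.7% (17.7 to 21.8). In the 253 regions with H3K4me1 at the end on the bare side alone the order was turned, with 21.3% (16.7 to 26.8) and 31.6% (26.2 to 37.6), although these intervals overlap. With H3K4me1 at neither end the shares were 15.0% and 15.5%. At 500 bp beyond the ends H3K27ac was present in 16.5% (15.4 to 17.7) on the H3K4me1 side and 8.29% (7.47 to 9.18) on the bare side.

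The H3K27ac region over the summit reached a median of 1114 bp (766 to 1552) on the H3K4me1 side and 899 bp (528 to 1357) on the bare side. It reached farther on the H3K4me1 side in 2320 of 3862 regions (60.1%, 58.5 to 61.6), and the difference in medians, 215 bp (SD 82.6), was above 0 on 23 of 23 chromosomes. It was -183 bp with the flank taken at 1000 bp and 71 bp in regions of at least 2500 bp. The order by kind of bare side, given next, is in part set by the division, as for H3K4me3. By kind, H3K27ac reached farther on the H3K4me1 side in 68.1% of the regions with a short H3K4me1 region on the bare side, 70.7% of those with H3K4me1 farther out and 68.0% of those with an empty bare side. In the 934 regions with H3K4me3 over the bare position it did so in 34.2% (31.2 to 37.3), with a median reach of 1253 bp on the H3K4me1 side and 1747 bp on the bare side. The H3K27ac summit lay more often the other way. It was displaced from the H3K4me3 summit toward the bare side in 2461 regions (63.7%, 62.2 to 65.2, SD 3.66 over chromosomes, above 50% on 23 of 23), by a median of 60 bp in the bare direction over all (offset toward the H3K4me1 side -60 bp, interquartile range -137 to 64). The share was 54.9% (52.8 to 57.0) with a short H3K4me1 region on the bare side, 74.7% with H3K4me3 over the position, 72.4% with H3K4me1 farther out and 76.1% (72.2 to 79.7) with an empty bare side. In both-sided regions the H3K27ac summit lay toward the side of the weaker H3K4me1 in 57.4% (55.7 to 59.0). Thus the H3K27ac summit lay toward the bare side in most regions of each kind, while the H3K27ac region reached farther toward H3K4me1 in most regions of 3 of the 4 kinds. With the flank taken at 1000 and 2000 bp, settings added after the values had been seen, the summit lay toward the bare side in 71.4% and 58.6%.

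Each flank was nearly always a region of its own. The 3971 members had 3957 different H3K4me1 regions as flanks, and 3553 (89.5%) of the flanks were the first H3K4me1 region on that side of the summit. The summit of the flank lay a median of 1400 bp (1137 to 1681) from the H3K4me3 summit. Of the flanks 3530 (88.9%) overlapped H3K4me3 and 2969 (74.8%, 73.4 to 76.1) overlapped H3K27ac. Flanks of both-sided regions overlapped H3K27ac more often, in 87.7% (86.6 to 88.8) for the stronger flank of a pair and 80.4% (79.1 to 81.7) for the weaker.

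The sole flank was of a strength between those of the stronger and the weaker flank of both-sided regions. Its median H3K4me1 signal value was 4.11 (3.24 to 5.29), against 5.51 (4.36 to 7.01) and 3.71 (2.94 to 4.79) for the stronger and weaker flank of a pair, and 3.17 (2.57 to 3.97) for the short H3K4me1 regions of the bare side. Picking the stronger and weaker of a pair sets them apart by construction, and the short regions were limited in width by the division. Both flanks of a pair pooled had a median of 4.54 (3.45 to 6.02). Median −log10 p-values of these peaks were 16.5 for the sole flank, 14.8 for the weaker of a pair and 10.6 for the short bare side regions, and the lowest in the H3K4me1 list was 2.00. Both-sided regions had an uneven H3K27ac of their own: it was present at 1500 bp on 45.5% (43.8 to 47.1) of the sides with the stronger H3K4me1 and 38.6% (37.0 to 40.2) of those with the weaker. That difference was 6.87 percentage points, beside 7.86 in one-sided regions. The measures are unlike, since both-sided regions held H3K4me1 at both positions and their sides were ordered by its signal value. The 7.86 also joins kinds of bare side with opposite order.

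**Figure D4:**
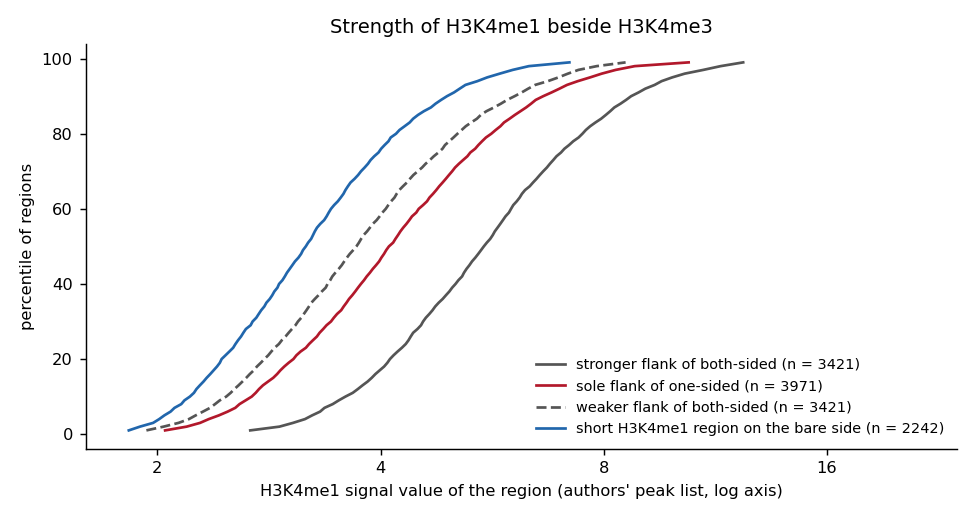
Percentile (y axis) of the authors' H3K4me1 signal value (x axis, log scale) for the sole flanks of one-sided regions (red), the stronger (grey line) and weaker (grey dashes) flanks of both-sided regions, and the short H3K4me1 regions on bare sides (blue). The sole flanks (median 4.11) lie between the weaker (3.71) and the stronger (5.51) flanks of both-sided regions.

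The classes were uneven across chromosomes, and the p-values of H3K4me1 peaks were uneven with them. The both-sided share was highest on chromosomes 22 (54.5%) and 20 (51.9%) and lowest on X (20.7%), and the unflanked share was 4.98% on chromosome 20 and 37.6% on X. The median −log10 p-value of H3K4me1 peaks was 12.8 on chromosome 20, the highest, and 7.49 on X, the lowest, while the median signal values were 3.30 and 3.54. Chromosome 19 departed from that order, with a median of 11.6 and 21.95% unflanked. The one-sided share was less uneven, from 37.1% on chromosome 22 to 49.6% on chromosome 18. The bare side had no H3K4me1 to 5000 bp in 28.2% of the members on X, against 6.67% on chromosome 22. What part the number of reads per chromosome has in the classes was not tested, and the depth behind the lists is unknown.

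**Figure D5:**
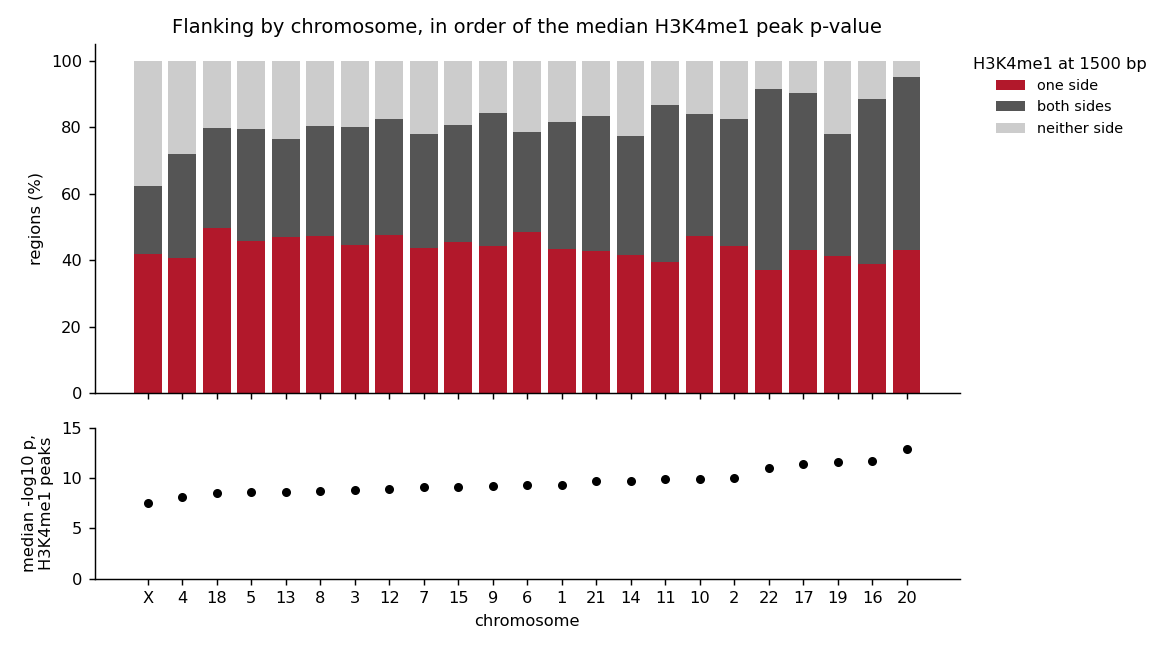
Top, the share (percent) of H3K4me3 regions of the width class with the summit outside H3K4me1 that were flanked on one side (red), both sides (dark grey) or neither (light grey), by chromosome. Bottom, the median −log10 p-value of all H3K4me1 peaks of the chromosome, which sets the order; the unflanked share is 37.6% on X at the left end and 4.98% on chromosome 20 at the right end.

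Another H3K4me3 region lay within 5000 bp of the summit on the bare side in 401 members (10.1%, 9.20 to 11.1) and on the H3K4me1 side in 332 (8.36%, 7.54 to 9.26). The difference of -1.74 percentage points was smaller than its SD over chromosomes (3.41), and was 0.47 with the flank taken at 2000 bp. The share on the bare side varied with its kind, and the kinds are themselves defined in part by H3K4me3 and H3K4me1 there. It was 17.7% (13.8 to 22.5) where H3K4me1 began between 1500 and 5000 bp, and 14.8% in the 934 with H3K4me3 over the position. Where the bare side was empty it was 2.39% (1.37 to 4.13), and in the 2242 with a short H3K4me1 region 8.88%. On the H3K4me1 side of the same kinds, in that order, the shares were 8.19%, 6.53%, 7.37% and 9.37%. In 119 cases 2 members were neighbours in the H3K4me3 list with summits within 10000 bp. Their bare sides faced each other in 50, their H3K4me1 sides in 26, and both had H3K4me1 on the same side in 43. The split to be had from unrelated neighbours was not computed, so no preferred orientation is read from these counts.

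Single members show these shapes. The 3 strongest with H3K4me1 on the left lay on chr11:18415519-18418726 (H3K4me3 signal value 91.9), chr18:77709385-77712851 (91.3) and chr11:3076874-3079387 (87.8). In the first, H3K4me3 reached 914 bp toward its H3K4me1 flank, which ran from 18412850 to 18415898, and 2293 bp the other way, where H3K4me1 began only 2575 bp from the summit. In the second, H3K4me3 reached 1964 bp toward the flank and H3K27ac 4207 bp, against 1502 and 1254 bp on the bare side. The 3 strongest with H3K4me1 on the right lay on chr19:45753617-45756676 (94.4), chr5:177630637-177633843 (93.1) and chr8:103873995-103877964 (89.0). In the first of these an H3K4me1 region began 646 bp from the summit on the bare side too. It is the strongest member by H3K4me3, and it was one-sided because that region ended before 1500 bp.

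By any H3K27ac region, 897 members were acetylated at the H3K4me1 side position alone and 585 at the bare side position alone. A single H3K27ac region over the summit covered the H3K4me1 side position alone in 729 of 3971 members. The opposite case was not counted for a single region. Of those 729, the 3 with the highest H3K27ac signal value lay on chr2:242639798-242643154 (82.0), chr19:1846533-1849178 (80.9) and chr14:75641130-75644085 (75.7). In the last, H3K27ac reached 2656 bp from the summit toward the flank and 921 bp on the bare side, where H3K4me1 began 4673 bp away. The strongest flanks belonged to members on chr11:704466-708223 (H3K4me1 signal value 15.1), chr15:90355848-90359013 (14.4) and chr3:129116574-129119116 (14.4). The flank on chromosome 15 was 10343 bp wide, from 90346967 to 90357309, while H3K4me1 on the bare side began 873 bp from the summit.

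The longest stretches without H3K4me1 on the bare side belonged to members on chr6:58286416-58288570, chr13:38922658-38925641 and chrX:64753041-64755507. H3K4me1 was next found 5422111, 1193536 and 1090606 bp from their summits. The stretch on chromosome 6 spans the centromere, where short reads are not placed. H3K4me3 was strong in the first (signal value 70.6), while its H3K27ac region reached 232 bp toward the flank and 281 bp on the bare side, and its flank was 775 bp wide. In the member on chromosome 13 H3K4me3 reached 1635 bp on the bare side, past the position tested.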

How the data were processed

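Chromatin immunoprecipitation and sequencing was done on 12 HepG2 libraries in 4 groups, per the labels. The authors deposited 1 narrowPeak list per mark which, going by its name, pools replicates. The submitters' processing notes name MACS2 and hg19 without role, version or threshold, and the use made of the control is not given in the sources used here. The signal value of each peak, the −log10 p-value and q-value and the score are as deposited by the authors. What the signal is relative to is not stated, so it was compared within a list only. The score was not used. Each list was used without a further threshold on chromosomes 1 to 22 and X, with 24446 H3K4me3, 182592 H3K4me1 and 66513 H3K27ac regions there.

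Regions were classed by the rule given above. Reach is the distance from the summit to the end of the region over it. Members and measures were chosen with earlier results of these data known. The named regions are the 3 highest by each criterion given. No test was run, since each mark has 1 pooled list. Planned comparisons of gene direction, divergent genes and CpG density were not run, because an annotation and genome of that build were not used here. The code was tested on simulated lists with known sides. Python 3.11.15, numpy 2.4.6, pandas 2.3.3 and matplotlib 3.10.9 were used.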

Additional observations from a re-analysis of the deposited data

How the results depend on the processing

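Over 8 results 76 alternative values were computed. A value was held the same within 1.5 times for the count, within its Wilson interval for the one-sided share, and within 1 SD over chromosomes otherwise; 46 were the same, 21 moved and 9 had the opposite sign. Changing the flank distance classed the members anew and moved the H3K27ac position with it. Taking the flank at 1000 bp gave a one-sided share of 45.8% and the opposite sign for the H3K27ac share (-13.3 percentage points), the reach of H3K27ac (-183 bp) and H3K4me3 (-351 bp), and the log2 differences from both-sided regions in H3K4me3 (0.11) and H3K27ac (0.29) signal value. At 2000 bp the share was 44.9%, the H3K27ac difference 23.1 percentage points, the reach differences 347 bp for H3K27ac and 328 bp for H3K4me3, and the difference in neighbouring H3K4me3 regions 0.47. Joining H3K4me1 peaks within 1000 bp gave a share of 42.5% and, within 1 SD, an H3K27ac difference of 3.09. Regions under 2500 bp gave 2038 members, a share of 48.0% and an H3K27ac difference of 14.4. Regions of at least 2500 bp gave 1933 members, 39.9%, an H3K27ac difference of 0.98, reach differences of 71 bp for H3K27ac and 7 bp for H3K4me3, and an H3K27ac signal difference of 0.038. Within quartiles of width the H3K4me3 signal difference was -0.0064 and that of H3K27ac -0.085. A −log10 q-value of at least 5 and autosomes only left all 8 the same by the criteria above, though the former gave an H3K27ac signal difference of -0.098. Fewer members in a narrower width class follow from its construction; the other causes were not tested.

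Further alternatives were chosen after seeing the data. The 606 members without H3K4me1 to 5000 bp on the bare side, with or without H3K4me3 at 1500 bp, gave an H3K27ac difference of 14.2 and a difference in neighbouring H3K4me3 regions of 2.97. Leaving out the 1091 members whose bare position H3K4me3 covered gave 27.5 and 0.21, reach differences of 303.5 bp for H3K27ac and 314.5 bp for H3K4me3, and signal differences of -0.15 for H3K4me3 and -0.35 for H3K27ac. Members were left out by the bare side only, so these differences between sides are in part set by that choice. Members with no other H3K4me3 region within 5000 bp moved none of the 5 results computed for them. No paired analysis was possible because each mark has 1 pooled list and the result comes from no test. Leaving out a replicate was not possible for the same reason. The 3 planned results on genes and sequence were not run. The depth is unknown, so how many bare sides lie under the limit of detection cannot be given.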

Other observations

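On chromosome Y, outside the main set, the rule found 2 one-sided regions among 11 H3K4me3 regions of the width class, beside 1 both-sided and 8 unflanked.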
